A study of Mus musculus with 9 samples.

Results

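Small nucleolar RNAs (snoRNAs) and the genes that carry them were followed in mouse T cells cultured under Th17-inducing conditions. Members were the genes whose symbol begins with Snord, Snora or Snhg, together with Gas5, and each was read from the probe set with the highest mean among those that carry its symbol alone. The rule gave 88 of 22180 genes: 47 C/D box snoRNAs (Snord), 26 H/ACA box snoRNAs (Snora) and 15 host genes (Snhg). Gas5, a non-coding host gene, shares its probe set with other symbols, and no value is given for it. Naive CD4 T cells were sorted from spleen and kept for 60 h on wells coated with anti-CD3 (10 µg/ml) and anti-CD28 (10 µg/ml). TGF-β1 (1 ng/ml) and IL-6 (30 µg/ml as the labels write it) were added, and IL-4 and IFN-γ were blocked with an antibody to each (2 µg/ml). The cells were SRG3 cKO (SRG3-deficient), RORgt KO (RORgt-deficient) or wild type (WT), and all 3 genotypes had the same culture, which held no group without TGF-β1 and IL-6. SRG3 belongs to the core of Swi/Snf, which remodels chromatin, and RORgt is the nuclear receptor on which Th17 differentiation depends. Total RNA of 3 cultures per genotype was hybridised to 9 arrays, and the study asked what loss of either protein does to Th17 differentiation. The labels name the arrays of a genotype as biological replicates. The Cre line behind the SRG3 deletion, the strain and age of the mice, and whether replicates were separate mice are not given in the sources used here.

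SnoRNAs are short RNAs of the nucleolus that guide enzymes to single bases of ribosomal RNA. C/D box snoRNAs direct ribose methylation by fibrillarin, and H/ACA box snoRNAs direct the conversion of uridine to pseudouridine by dyskerin. In mammals most are cut out of the introns of host genes, many of which encode ribosomal or nucleolar proteins, while the Snhg hosts make spliced RNAs that mostly code for no protein and are often destroyed by nonsense-mediated decay. Dividing T cells make many ribosomes, and snoRNAs are part of that machinery.

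Snhg genes are 7 of the 47 measured genes whose span holds a snoRNA of the list. The windows around 5 Snhg start sites are shown, chosen because the values of these loci are described gene by gene. Snhg5 holds none of the snoRNAs of the list. Windows of 13 of the 15 host genes were taken from the RefSeq promoter table of GRCm38.p6, by gene ID. Snhg4 and Snhg6 were not among them, so the motif counts say nothing of these genes. Each window runs from 250 bases before the annotated start to 50 bases after it, and capitals mark matches, on either strand, to the TATA box TATAAA, the E-box CACGTG or the nuclear receptor half-site AGGTCA. The windows were Snhg1 at chr19:8723237-8723536 (plus strand), Snhg3 at chr4:132353637-132353936 (minus), Snhg5 at chr9:88522848-88523147 (minus), Snhg9 at chr17:24719916-24720215 (minus) and Snhg12 at chr4:132308428-132308727 (plus).
Snhg1: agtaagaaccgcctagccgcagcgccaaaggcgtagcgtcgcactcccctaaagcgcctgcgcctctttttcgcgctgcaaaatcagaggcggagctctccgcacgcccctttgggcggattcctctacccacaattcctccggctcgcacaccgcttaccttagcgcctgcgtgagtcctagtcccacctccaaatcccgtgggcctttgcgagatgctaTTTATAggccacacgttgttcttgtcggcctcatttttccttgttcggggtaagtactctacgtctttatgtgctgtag
Snhg3: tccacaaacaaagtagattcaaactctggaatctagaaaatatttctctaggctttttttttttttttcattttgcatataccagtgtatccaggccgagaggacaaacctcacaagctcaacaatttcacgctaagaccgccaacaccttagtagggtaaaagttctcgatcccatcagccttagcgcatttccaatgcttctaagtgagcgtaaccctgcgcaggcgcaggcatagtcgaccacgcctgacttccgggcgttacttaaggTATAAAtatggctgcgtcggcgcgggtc
Snhg5: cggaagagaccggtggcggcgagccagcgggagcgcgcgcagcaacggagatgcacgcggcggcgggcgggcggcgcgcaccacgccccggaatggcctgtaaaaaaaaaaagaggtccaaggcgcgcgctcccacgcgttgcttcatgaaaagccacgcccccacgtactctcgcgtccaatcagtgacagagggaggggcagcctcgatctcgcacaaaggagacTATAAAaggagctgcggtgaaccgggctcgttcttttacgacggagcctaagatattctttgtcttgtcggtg
Snhg9: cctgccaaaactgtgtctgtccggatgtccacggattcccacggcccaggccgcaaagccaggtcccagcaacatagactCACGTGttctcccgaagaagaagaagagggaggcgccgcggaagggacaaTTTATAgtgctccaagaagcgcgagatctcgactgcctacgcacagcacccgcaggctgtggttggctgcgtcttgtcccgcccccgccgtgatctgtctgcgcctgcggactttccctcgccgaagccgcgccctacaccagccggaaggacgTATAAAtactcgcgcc
Snhg12: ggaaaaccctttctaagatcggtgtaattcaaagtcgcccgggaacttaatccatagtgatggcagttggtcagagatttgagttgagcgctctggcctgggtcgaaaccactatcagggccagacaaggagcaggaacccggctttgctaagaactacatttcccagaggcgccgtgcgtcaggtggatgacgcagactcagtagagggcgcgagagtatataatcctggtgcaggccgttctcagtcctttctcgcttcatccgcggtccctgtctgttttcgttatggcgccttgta

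TATAAA was found in the windows of 5 of the 13 host genes (Snhg1, Snhg3, Snhg5, Snhg7 and Snhg9), and 13.6% of all 32851 windows of the table held it. It began 23 bases before the start in Snhg5 and 30 bases before it in Snhg7, on the strand of the gene. In Snhg1 it lay 29 bases before the start on the other strand, and in Snhg3 it began 22 bases after the start. CACGTG was found in Snhg9 and Snhg15 and in 7.15% of all windows, and AGGTCA, the half-site that RORgt and other nuclear receptors can bind, was found in Snhg18 alone of the 13 and in 16.3% of all windows. The Snhg12 window held none of these letters. A match describes the letters of the window and is not a measured binding site.

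The labels were checked on the gene that encodes SRG3. Smarcc1 was at 8.47, 8.79 and 8.62 in SRG3 cKO arrays and 10.12, 10.04 and 10.19 in RORgt KO arrays, against 10.13, 10.32 and 10.39 in WT arrays, and fell by 1.65 on the log2 scale in SRG3 cKO cells (SE 0.09, adjusted p = 0.000207 by limma). Values are log2 intensities throughout, and the array medians were 7.12 to 7.14. The T cell genes Cd3e, Cd3g, Cd4 and Thy1 lay between 9.53 and 11.71 on all arrays, and the Th17 effector genes Il17a, Il17f and Il23r fell in SRG3 cKO and in RORgt KO cells. None of the 4 B cell and MHC class II, 6 myeloid and 4 CD8 T and NK markers measured passed the test in any comparison, and they were at 7.80 at most on every array, except Cd8b1 at 8.41 to 8.69.

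Most of the 88 genes gave bright probe sets. Their mean values over 9 arrays had a median of 9.81, against 7.29 for all 22180 genes, and 68 of the 88 lay above the 75th percentile of all probe set values (8.23). C/D box snoRNAs had a median of 10.13, with 38 of 47 above that percentile. H/ACA box snoRNAs had a median of 9.62 with 21 of 26 above it, and host genes 8.82 with 9 of 15 above it. The brightest were Snora33 (13.26), which lies in the gene of the ribosomal protein Rps12, Snord22 (12.88), which lies in Snhg1 and is known in frogs to act in processing of small-subunit ribosomal RNA, and Snord82 (12.33), which lies in the nucleolin gene Ncl. Snord47 (12.22) in Gas5, Snord110 (12.09) in Nop56 and Snord49b (12.01) followed. A probe set's brightness also depends on its probes, so these values place each probe set among all probe sets and do not order the RNAs by abundance. The annotated snoRNA genes of the list are 48 to 221 bases long, and the labels do not say how well so short an RNA is carried through labelling, nor can a probe inside an intron tell the mature snoRNA from the host's unspliced RNA.

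**Figure D1:**
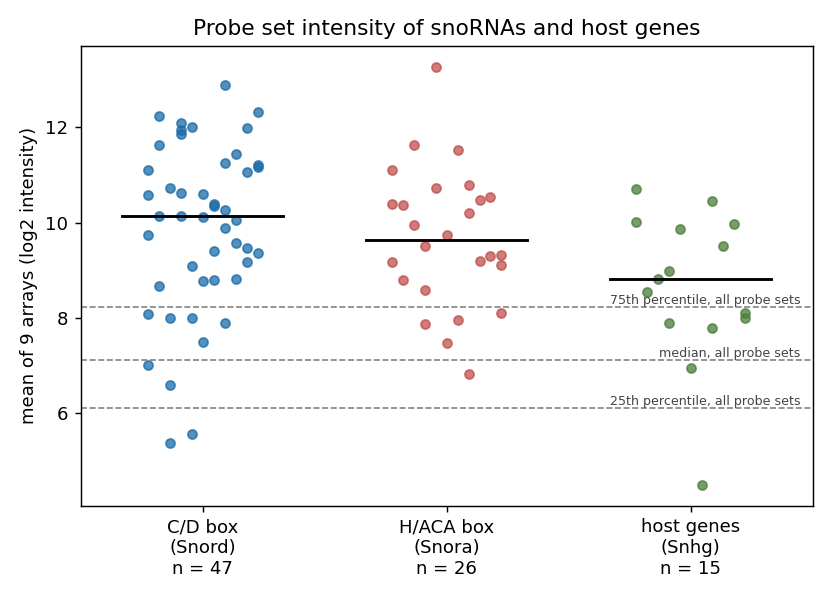
Mean log2 intensity over the 9 arrays of each of the 88 genes (points), by class, with the class median (black line) and the quartiles of all probe set values (dashed lines). The class medians are 10.13 for C/D box snoRNAs, 9.62 for H/ACA box snoRNAs and 8.82 for host genes, and 3 genes (Snhg14, Snord85 and Snord90) lie below the 25th percentile.

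The 3 dimmest were Snhg14 (4.51), Snord85 (5.37) and Snord90 (5.57), all below the 25th percentile of 6.12. Snhg14 is a very long neuronal host gene, known for the imprinted snoRNA clusters it carries. Its values were 4.55, 4.47 and 4.61 in SRG3 cKO arrays and 4.42, 4.56 and 4.42 in RORgt KO arrays, against 4.51 in each of the 3 WT arrays. The spread within genotypes varied between members: the residual SD had a median of 0.087 for the 88 genes and 0.069 for all genes, and it was above 0.2 for 8 of the 88 (9.09%) against 1.79% of all genes. H/ACA box snoRNAs held 5 of these 8 genes: Snora73b (0.633), Snora73a (0.580), Snora44 (0.369), Snora31 (0.254) and Snora61 (0.230).

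No snoRNA or host gene was found to change in SRG3 cKO cells relative to WT. None of the 88 passed the test (limma, adjusted p under 0.05), against 0.523% of all genes, and the smallest adjusted p among them was 0.129. At an unadjusted p under 0.05, 2 were higher and 5 lower in SRG3 cKO cells, where 6.04% of all genes were higher and 5.14% lower. The 95% interval of the difference lay within 0.5 of 0 on the log2 scale for 82 of the 88, and no estimate reached 1. The members' median log2 change was 0.02, with 35 of 88 below 0 (53.6% of all genes were below 0).

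The classes lay on different sides of 0 in SRG3 cKO cells, by small amounts. Of the C/D box snoRNAs 9 of 47 were below 0 (median 0.04), against 16 of 26 H/ACA box snoRNAs (median -0.07) and 10 of 15 host genes (median -0.06), and the median of all genes was -0.01. The groups did not overlap for 8 members higher in SRG3 cKO cells (7.04% of all genes), of which 7 were C/D box snoRNAs, and for 3 lower in SRG3 cKO cells (6.56% of all genes): Snora74a, Snora78 and Snhg5. The H/ACA median turned to 0.03 without SRG3 cKO array 1 and to 0.01 without WT array 2, and otherwise lay between -0.13 and -0.02 when 1 array was left out. The host median lay between -0.12 and -0.03, and that of C/D box snoRNAs between 0.02 and 0.08. The median of all 88 was -0.01 without WT array 1.

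The largest differences in SRG3 cKO cells did not pass the test. Snora74a, an H/ACA box snoRNA carried by Snhg4, was at 9.19, 9.03 and 8.97 in SRG3 cKO arrays and 9.16, 9.16 and 9.07 in RORgt KO arrays, against 9.28, 9.44 and 9.31 in WT arrays. All 6 knockout arrays lay below the WT arrays, and its log2 change was -0.28 in SRG3 cKO cells (95% interval -0.43 to -0.14, adjusted p = 0.129) and -0.21 in RORgt KO cells (adjusted p = 0.217). Snora61 (-0.30), Snhg3 (-0.23) and Snora75 (-0.22) were the other lowest, with adjusted p between 0.408 and 0.648. Snord70, which lies in an intron of Nop58, the gene of a C/D box core protein, had the highest estimate. Its values were 10.10, 10.31 and 10.32 in SRG3 cKO arrays, against 9.88, 10.12 and 10.06 in WT arrays, and the groups overlapped (0.22, interval -0.01 to 0.45, adjusted p = 0.473). Snord71 (0.15), Snord92 (0.14) and Snord1b (0.13) came next and did not pass either.

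In RORgt KO cells 1 of the 88 genes changed relative to WT, against 1.04% of all genes, and most of the others were slightly below WT. Snord89 rose. At an unadjusted p under 0.05, 2 members were higher and 11 lower in RORgt KO cells, where 6.08% of all genes were higher and 6.64% lower. The median log2 change of the 88 was -0.06, and 67 of 88 were below 0, against 51.6% of all genes. The H/ACA box snoRNAs had a median of -0.10 (21 of 26 below 0), host genes -0.14 (12 of 15) and C/D box snoRNAs -0.05 (34 of 47). Groups did not overlap for 3 members higher in RORgt KO cells (6.9% of all genes), namely Snord8, Snord89 and Snhg9, and for 5 lower in RORgt KO cells (7.35% of all genes), namely Snora74a, Snora75, Snora78, Snhg17 and Snhg5. The interval lay within 0.5 of 0 for 79 of the 88, and the largest estimate in size was -0.58. The median of the 88 was -0.02 without RORgt KO array 1 and -0.03 without WT array 2, the arrays on which the members lay lowest and highest beside their genotype mean, and -0.05 without the 3 arrays numbered 1. The H/ACA median was -0.02 without RORgt KO array 1, -0.04 without WT array 2 and -0.15 without WT array 1. The C/D median was -0.01 without RORgt KO array 1, -0.0008 without WT array 2 and -0.07 without RORgt KO array 2, and the host median was -0.09 without WT array 2. The comparison shares its WT arrays with that of SRG3 cKO cells.

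**Figure D2:**
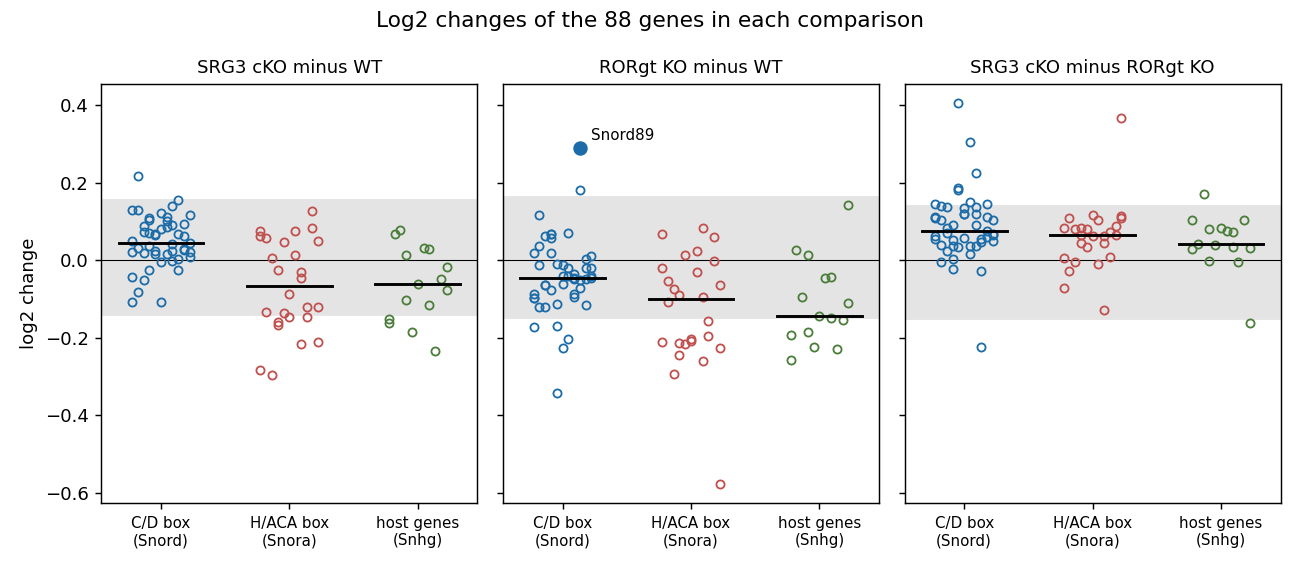
Log2 change of each of the 88 genes (points) by class, for SRG3 cKO minus WT, RORgt KO minus WT and SRG3 cKO minus RORgt KO, with class medians (black lines) and the range from the 5th to the 95th percentile of all genes (grey band). The filled point is Snord89 in RORgt KO minus WT, which passed the test, and class medians in that comparison are -0.05, -0.10 and -0.14.

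Snord89 is a C/D box snoRNA of 94 bases on chromosome 1. Its values were 8.95, 9.05 and 8.97 in RORgt KO arrays and 8.87, 8.70 and 8.72 in SRG3 cKO arrays, against 8.71, 8.71 and 8.68 in WT arrays. The RORgt KO arrays were the 3 highest of the 9. The log2 change in RORgt KO cells was 0.29 (SE 0.05, 95% interval 0.18 to 0.40, 1.22-fold, adjusted p = 0.0331), and that in SRG3 cKO cells was 0.07 (adjusted p = 0.673). SRG3 cKO cells minus RORgt KO cells gave -0.22 (adjusted p = 0.0854). Its size held when arrays were left out in turn (0.26 to 0.31), but its place below the threshold did not. It passed without SRG3 cKO array 1 (adjusted p = 0.0235) and did not pass without any of the other 8. The adjusted p was 0.0540, 0.130 and 0.131 without WT array 1, 2 or 3. It was 0.0890, 0.143 and 0.0683 without RORgt KO array 1, 2 or 3, and 0.05001 and 0.0617 without SRG3 cKO array 2 or 3.

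In the mouse annotation Snord89 lies in the span of no longer gene, and its nearest neighbours are Cnot11, with a gap of 1866 bases, and Rnf149, with a gap of 2454 bases. RNF149, which encodes a ubiquitin ligase, is the host of SNORD89 in the human genome. Rnf149, looked up after the value of Snord89 was seen, was at 8.98, 9.07 and 8.91 in RORgt KO arrays and 8.72, 8.77 and 8.61 in SRG3 cKO arrays, against 8.71, 8.62 and 8.67 in WT arrays. As for Snord89, the 3 RORgt KO arrays were the highest. Rnf149 rose in RORgt KO cells (0.31, SE 0.06, adjusted p = 0.0349) and was lower in SRG3 cKO than in RORgt KO cells (-0.28, adjusted p = 0.0457). With 1 array left out it did not pass in 6 of 9 fits against WT, among them those without WT array 2 (adjusted p = 0.144) or RORgt KO array 2 (0.143). Against RORgt KO it passed in none of the 9, with adjusted p from 0.0553 to 0.158. Cnot11, a subunit of the deadenylase complex that shortens poly(A) tails, was at -0.05 in RORgt KO cells (adjusted p = 0.701).

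Snora78 and Snhg9 lie at a single locus on chromosome 17 and differed from WT in opposite directions in RORgt KO cells, without passing the test. Snora78, an H/ACA box snoRNA within the span of Snhg9 and of the ribosomal protein gene Rps2, was at 9.47, 9.37 and 9.36 in RORgt KO arrays and 9.50, 9.49 and 9.46 in SRG3 cKO arrays, against 9.63, 9.73 and 9.57 in WT arrays. Every knockout array was below every WT array. Its log2 change was -0.24 in RORgt KO cells (interval -0.36 to -0.13, adjusted p = 0.0596) and -0.16 in SRG3 cKO cells (adjusted p = 0.267). The RORgt KO value passed under quantile normalisation (adjusted p = 0.0459), with dim genes left out (0.0432) and with a variance trend and robust fit (0.0457). Snhg9, whose promoter window carries the CACGTG shown above, was at 8.14, 8.08 and 8.07 in RORgt KO arrays and 7.89, 7.99 and 7.93 in SRG3 cKO arrays, against 7.95, 7.93 and 7.99 in WT arrays. The RORgt KO arrays were the 3 highest, at 0.14 above WT (interval 0.05 to 0.23, adjusted p = 0.181) and, with SRG3 cKO first, at -0.16 between the knockouts (adjusted p = 0.130). Neither difference of Snhg9 passed.

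**Figure D3:**
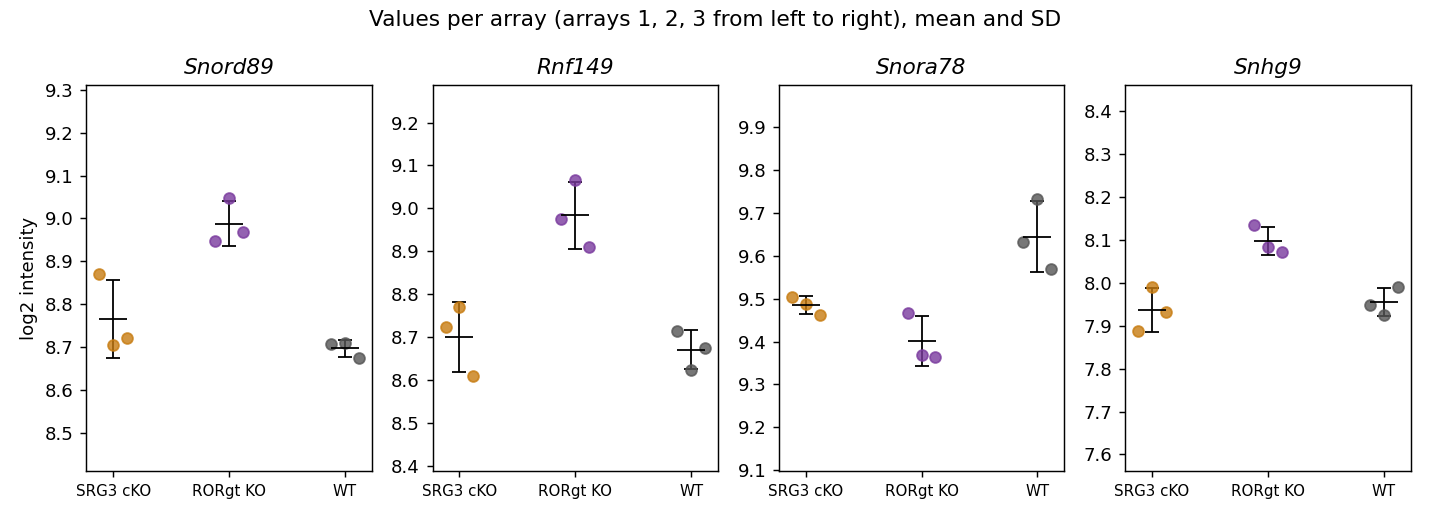
Log2 intensity per array of Snord89, its neighbour Rnf149, Snora78 and Snhg9 in SRG3 cKO, RORgt KO and WT cultures, with mean and SD of 3 arrays per genotype (black), each panel spanning 0.9 log2 units. RORgt KO arrays are the 3 highest for Snord89, Rnf149 and Snhg9, and WT arrays are the 3 highest for Snora78.

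Snhg12 carries 4 of the measured snoRNAs, and they did not share a value. Snora44 had the largest estimate of all members, at 8.87, 8.87 and 9.26 in RORgt KO arrays and 9.27, 9.61 and 9.22 in SRG3 cKO arrays, against 8.95, 10.02 and 9.77 in WT arrays. WT array 1 lay among the RORgt KO arrays and far from the other WT arrays. The log2 change in RORgt KO cells was -0.58 (SE 0.24, interval -1.12 to -0.04, adjusted p = 0.361). Without WT array 1 it was -0.89 and passed (adjusted p = 0.0368), as did Snhg7, a host gene of H/ACA box snoRNAs (adjusted p = 0.0296, against 0.442 with all arrays). Snora61 of the same host was at -0.29 in RORgt KO cells (adjusted p = 0.474), Snora16a at -0.09 and the C/D box snoRNA Snord99 at 0.07. Snhg12 itself was at -0.11 in RORgt KO cells and -0.08 in SRG3 cKO cells.

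Among the other host genes, the estimates in RORgt KO cells ran from -0.26 to 0.14 and none passed. Snhg5 was at 9.76, 9.92 and 10.01 in RORgt KO arrays and 9.93, 10.04 and 10.04 in SRG3 cKO arrays, against 10.05, 10.27 and 10.14 in WT arrays. All knockout arrays lay below the WT arrays, WT array 1 narrowly so, and the change was -0.26 in RORgt KO cells (adjusted p = 0.189) and -0.15 in SRG3 cKO cells (0.496). Snhg1, whose introns carry a run of C/D box snoRNAs, was at 10.60, 10.61 and 10.70 in RORgt KO arrays and 10.59, 10.71 and 10.70 in SRG3 cKO arrays, against 10.70, 10.94 and 10.85 in WT arrays. Its estimates were -0.19 and -0.16, while Snord22, which lies in it, was at -0.04 and 0.00 in RORgt KO and SRG3 cKO cells. Snhg4 (-0.22), Snhg7 (-0.18), Snhg17 (-0.15), Snhg6 (-0.15) and Snhg18 (-0.14) were also below WT in RORgt KO cells. Snhg15 (-0.09), Snhg14 (-0.05), Snhg10 (-0.04), Snhg11 (0.01) and Snhg20 (0.03) lay closer to 0.

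Of the C/D box snoRNAs, Snord19 had the lowest estimate in RORgt KO cells. It lies in the gene of the nucleolar GTPase nucleostemin, Gnl3, and was at 7.55, 7.73 and 7.98 in RORgt KO arrays and 7.996, 8.32 and 8.16 in SRG3 cKO arrays, against 7.92, 8.31 and 8.05 in WT arrays. RORgt KO array 3 overlapped the WT range, and the change was -0.34 (interval -0.63 to -0.06, adjusted p = 0.307). Snora75, which lies in the nucleolin gene Ncl, was at -0.26 (adjusted p = 0.257), with all RORgt KO arrays (10.19, 9.94 and 10.19) below the WT arrays (10.24, 10.46 and 10.41). After Snord89, the highest estimates were Snord71 (0.18), Snhg9 (0.14) and Snord70 (0.12). Snord118 and Snord13, which have their own promoters in mammals and act in ribosomal RNA maturation, lie in the span of no longer gene, as Snord89 does. They were at -0.02 and -0.12 in RORgt KO cells and 0.02 and 0.03 in SRG3 cKO cells, and neither passed.

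Set directly against each other, SRG3 cKO and RORgt KO cells differed past the threshold in none of the 88 genes, where 1.28% of all genes passed (limma). The smallest adjusted p was that of Snord89, 0.0854, and with the replicate number as a block 1 of the 88 passed, Snord61 (adjusted p = 0.0419). At an unadjusted p under 0.05, 8 members were higher and 2 lower in SRG3 cKO cells, where 5.57% of all genes were higher and 5.5% lower. The groups did not overlap for 19 members higher in SRG3 cKO than in RORgt KO cells (7.79% of all genes), 13 of them C/D box snoRNAs, and for 2 lower (6.82% of all genes), Snord89 and Snhg9. The median log2 change was 0.07, with 12 of 88 below 0 (50.7% of all genes). Class medians were 0.08 for C/D box snoRNAs, 0.07 for H/ACA box snoRNAs and 0.04 for host genes. With 1 array left out they lay between 0.05 and 0.11, between 0.02 and 0.10, and between 0.02 and 0.10. The interval lay within 0.5 of 0 for 84 of the 88.

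The largest of these differences were Snord19 (0.41, interval 0.12 to 0.69, adjusted p = 0.243), Snora44 (0.37), Snord61 (0.30) and Snord92 (0.23). Snord61, which lies in the gene of the RNA-binding protein Rbmx, was at 10.53, 10.57 and 10.44 in SRG3 cKO arrays, against 10.07, 10.39 and 10.17 in RORgt KO arrays, and its WT values were 10.38, 10.53 and 10.33. Each SRG3 cKO array was above each RORgt KO array, and the adjusted p was 0.173, against 0.0419 with the replicate block. The lowest after Snord89 (-0.22) and Snhg9 (-0.16) were Snora35 (-0.13) and Snora74a (-0.07). Snora35, which lies in the serotonin receptor gene Htr2c, was at 6.61, 6.87 and 6.81 in SRG3 cKO arrays, against 6.98, 6.85 and 6.85 in RORgt KO arrays.

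The array numbered 1 was low for many members in every genotype, by amounts that differed between genotypes and classes. It was the lowest of its genotype for 47 of 88 members in SRG3 cKO, 60 in RORgt KO and 56 in WT cultures, against 37.3%, 34.6% and 38.2% of all genes. For C/D box snoRNAs it was lowest for 20 of 47 in SRG3 cKO, 31 in RORgt KO and 28 in WT cultures. In all 3 genotypes at once it was lowest for 27 of 88 (30.7%), against 5.44% of all genes. The members' median deviation from the genotype mean was -0.03, -0.07 and -0.06 in these arrays and 0.09 in WT array 2, while that of all genes was within 0.01 of 0 on every array. The labels do not say what the replicate number stands for, and its part in the members' values was not tested.

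**Figure D4:**
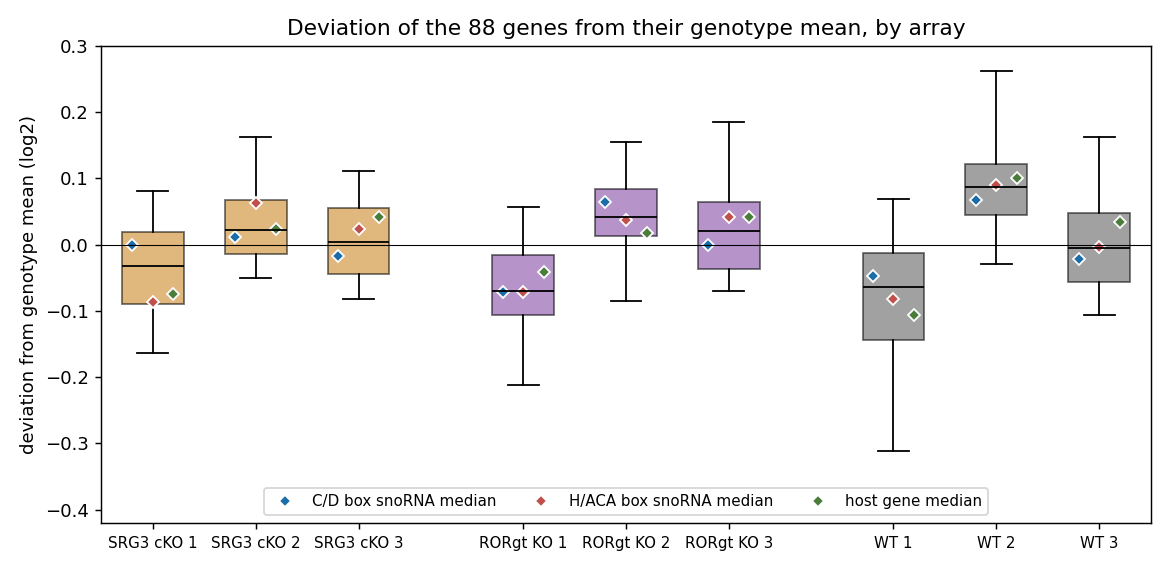
Deviation of the 88 genes from their own genotype mean (log2) on each array, as boxes (quartiles, median line, whiskers at the 5th and 95th percentile), with class medians as diamonds. The median box lines of the arrays numbered 1 are at -0.03 in SRG3 cKO, -0.07 in RORgt KO and -0.06 in WT cultures, and WT array 2 is the highest at 0.09.

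The pattern was widest at the Snhg3 locus. Snora73a and Snora73b are close copies within Snhg3 that belong to a snoRNA family needed for processing of small-subunit ribosomal RNA, and their probes may share signal. Snora73a was at 9.75, 10.93 and 10.69 in SRG3 cKO arrays and 9.75, 10.63 and 10.76 in RORgt KO arrays, against 9.93, 10.88 and 10.92 in WT arrays. Snora73b was at 9.92, 11.22 and 10.98 in SRG3 cKO arrays and 9.93, 10.86 and 11.10 in RORgt KO arrays, against 10.17, 11.11 and 11.25 in WT arrays. In each genotype the array numbered 1 was the low array and the genotypes overlapped widely, so the intervals are broad (Snora73a in SRG3 cKO cells -0.12, interval -0.96 to 0.72). Snhg3 was at 9.09, 9.67 and 9.55 in SRG3 cKO arrays and 9.37, 9.35 and 9.60 in RORgt KO arrays, against 9.36, 9.77 and 9.87 in WT arrays. Array 1 was its lowest in SRG3 cKO and WT cultures, and array 2 was marginally lowest in RORgt KO cultures.

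SnoRNAs were then set beside the genes whose introns can carry them. By the coordinates of the RefSeq table, without regard to strand, 70 of the 73 snoRNAs lie in the span of a longer gene, and 60 have a measured host, which gives 61 pairs with 47 hosts. Of these hosts 7 are members, 40 are other genes, and 11 encode ribosomal proteins. In SRG3 cKO cells 29 of the 61 pairs had estimates of the same sign as their host against WT, with a median of 0.02 for snoRNAs and -0.06 for hosts. In RORgt KO cells 40 of 61 did, with medians of -0.06 and -0.10. Most snoRNAs (34 of 47 C/D box and 21 of 26 H/ACA box) and 29 of the 40 other hosts were below 0 in RORgt KO cells. Equal signs are then frequent without any link within a pair. None of the 40 hosts outside the list passed in any comparison (limma). Of the 40, at an unadjusted p under 0.05, 1 was higher in SRG3 cKO cells (6.04% of all genes) and 8 were lower in RORgt KO cells (6.64% of all genes), each against WT. Between the knockouts 1 was higher in SRG3 cKO cells (5.57% of all genes).

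**Figure D5:**
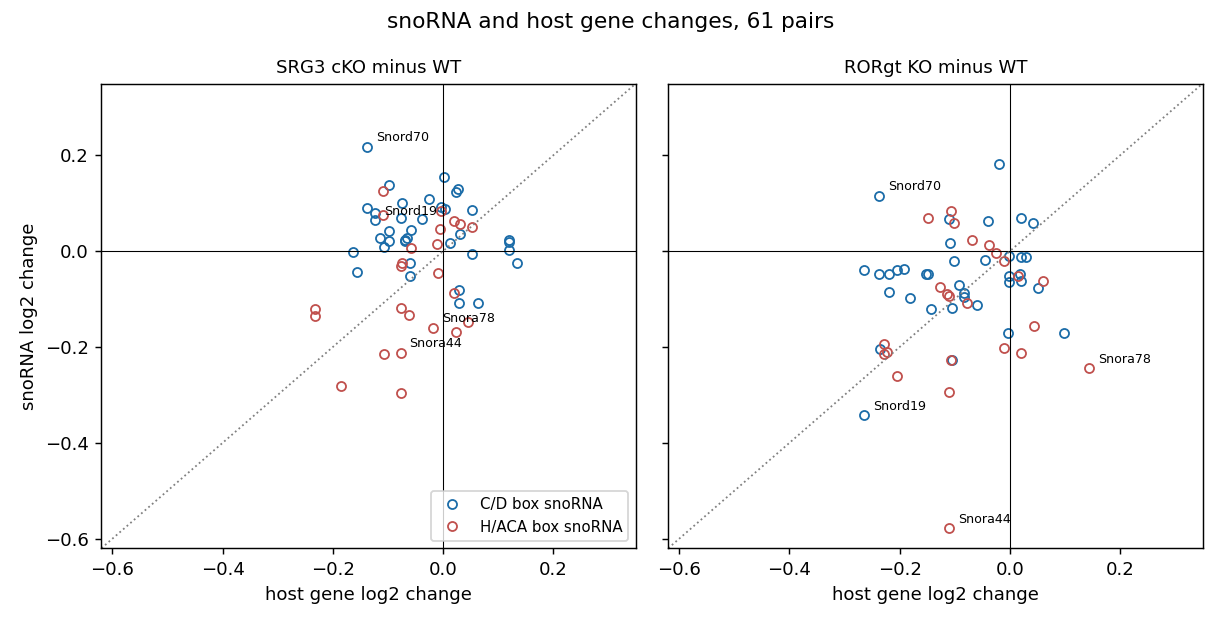
Log2 change of a snoRNA (vertical axis) against that of the gene whose span holds it (horizontal axis) for 61 pairs, in SRG3 cKO minus WT and RORgt KO minus WT, with C/D and H/ACA box snoRNAs in separate colours and equality as a dotted line. Signs are equal in 29 of 61 pairs in SRG3 cKO and 40 of 61 in RORgt KO cells, and points of a shared host fall on a vertical line.

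Some pairs differed in sign, others in size alone, and some lay close together. Snord70 and Snord11 lie in Nop58, and in RORgt KO cells they were at 0.12 and -0.05, against -0.24 for Nop58 (adjusted p = 0.227). In SRG3 cKO cells they were at 0.22 and 0.09, against -0.14 for the host. Ncl carries Snord82 and Snora75, which were at -0.04 and -0.26 in RORgt KO cells, where Ncl was at -0.21. Snora33 and Rps12 lay near 0 in both knockouts (0.05 and -0.01 in SRG3 cKO cells, 0.01 and -0.04 in RORgt KO cells).

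Genes of pathways around snoRNAs were taken as 7 lists with 87 of 98 members measured. The lists held proteins that bind, assemble and trim snoRNAs. They also held 28 RNA polymerase I and ribosomal RNA processing genes, 11 nonsense-mediated decay factors and 10 translation regulators. The counts that follow pool all 7 lists. None passed in any comparison (limma). At an unadjusted p under 0.05, 2 were higher and 4 lower in SRG3 cKO cells than in WT, where 6.04% of all genes were higher and 5.14% lower. In RORgt KO cells 0 were higher and 37 lower than in WT (6.08% and 6.64% of all genes). Between the knockouts 16 were higher and 1 lower in SRG3 cKO cells (5.57% and 5.5% of all genes). In RORgt KO cells 73 of the 87 were below 0 (51.6% of all genes), with a median of -0.11, against -0.02 in SRG3 cKO cells. RORgt KO array 2 was the lowest of its genotype for 59 of the 87 and WT array 1 for 60, with median deviations of -0.06 and -0.05 from the genotype mean. Without RORgt KO array 2 the median in RORgt KO cells was -0.07, with 22 lower at that unadjusted p, and without WT array 1 it was -0.13, with 46 lower. Without WT array 2 there were 23 lower. The shares of all genes above belong to the fit of all arrays, and none is given for the fits with an array left out. The part of single arrays in these values was not tested beyond that.

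Among the snoRNA-binding proteins in RORgt KO cells, all 4 H/ACA core proteins were below WT (median -0.21), as were the 3 measured C/D core proteins (median -0.22). Dkc1, which encodes dyskerin, was at 10.43, 10.35 and 10.58 in RORgt KO arrays and 10.51, 10.59 and 10.57 in SRG3 cKO arrays, against 10.63, 10.77 and 10.79 in WT arrays. All knockout arrays were below the WT arrays, and the change in RORgt KO cells was -0.28 (adjusted p = 0.100, and 0.045 without RORgt KO array 3). Gar1 (-0.22, adjusted p = 0.318), Nop58 (-0.24, 0.227) and Snu13 (-0.22, 0.165) did not pass either. Of 17 assembly factors 7 were lower at an unadjusted p under 0.05 (6.64% of all genes), led by Naf1, an H/ACA assembly factor (-0.30, adjusted p = 0.0694, and 0.0406 without RORgt KO array 3), and Znhit6, a C/D assembly factor (-0.24, 0.267). Shq1, the chaperone of dyskerin, was higher in SRG3 cKO than in RORgt KO arrays without passing (0.22, adjusted p = 0.0621). It passed with dim genes left out (0.0444) and without RORgt KO array 3 (0.0456).

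The RNA polymerase I and ribosomal RNA processing genes had 24 of 28 below 0 in RORgt KO cells (median -0.16), with 17 lower at an unadjusted p under 0.05. Over all genes 51.6% were below 0 and 6.64% lower at that p, the background for each list in this comparison. Utp20, part of the complex that processes the small-subunit RNA, was at 9.52, 9.27 and 9.61 in RORgt KO arrays and 9.72, 9.78 and 9.70 in SRG3 cKO arrays, against 9.73, 10.02 and 9.93 in WT arrays. Its change in RORgt KO cells was -0.42 (adjusted p = 0.0768, and 0.0393 without WT array 1), and Wdr12 was at -0.32 (0.144). Genes of snoRNA release and exonuclease trimming had 6 of 14 lower at that unadjusted p (median -0.09), with Dbr1, the enzyme that opens intron lariats, at -0.19 and the exonuclease Dis3 at -0.17. Nonsense-mediated decay factors had 0 of 11 (median -0.03, Smg5 -0.15 and Upf1 -0.11). Regulators of terminal oligopyrimidine RNAs, the class to which many host RNAs belong, had 1 of 10 (median -0.04, Eif4ebp1 0.17 and Tial1 -0.12).

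In SRG3 cKO cells these lists lay closer to WT. The medians were -0.10 for C/D core proteins, -0.09 for H/ACA core proteins, -0.02 for assembly factors, -0.06 for RNA polymerase I and processing genes, and between -0.02 and 0.00 for the other 3 lists. The largest estimates included Dkc1 (-0.18, adjusted p = 0.362), Naf1 (-0.19, 0.317), Nop58 (-0.14, 0.533) and Myc (0.19, 0.507), the transcription factor that drives ribosome synthesis. Parn, an exonuclease that trims the ends of H/ACA box snoRNAs, was at 0.14 (0.319) and Eif4ebp1 at 0.21 (0.519).

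For 4 members more than 1 probe set carried the symbol. Those of Snora33 differed: the brighter (13.26) was at 0.05 in SRG3 cKO and 0.01 in RORgt KO cells, and the dimmer (9.10) was at -0.23 and -0.31, with no pass at either. The 3 probe sets of Snhg17 were at -0.15, -0.34 and -0.15 in RORgt KO cells. The 2 of Snhg11 were at 0.01 and -0.08 in those cells, and the 2 of Snora19 held the same values.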

How the data were processed

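Gene expression was measured on arrays of 41345 probe sets, 3 each for SRG3 cKO, RORgt KO and WT cultures, grouped by the labels. The values are log2 intensities as deposited by the authors. Their background correction, probe summary and normalisation were not given in the sources used here, nor was each probe's signal over background measured. The number of arrays limits the precision, and 0 sample columns were left unused. Of the probe sets 23521 carried 1 symbol, 1814 several and 16010 none. RefSeq's table of GRCm38.p6 gave current symbols, spans and neighbours, and 23328 probe sets matched it through the gene ID. Hosts were to be taken on the same strand, but that table was used without strand.

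Genotypes were compared over 22180 genes in a single fit of 9 arrays (limma 3.58.1, R 4.3.3), two-sided, with Benjamini-Hochberg adjustment over all genes and a threshold of 0.05. The same steps were tested on simulated data. Members, lists and naming rules were chosen with earlier results of these data known. Genes named were members that passed, the 4 largest changes each way per comparison, the 6 brightest, every Snhg gene, and 2 genes per list and comparison at most. Others, such as Rnf149 and Snora78, were chosen after their values were seen. The genes most correlated with Gas5, which that rule also asked for, could not be given without a value for Gas5. Results that need 1 item are not reported here.

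To check whether replicate numbers pair the arrays, deviations from group means were correlated between arrays of equal number. SRG3 cKO with WT gave 0.287, 0.186 and 0.116. RORgt KO with WT gave 0.215, -0.00527 and 0.186, and SRG3 cKO with RORgt KO gave 0.223, -0.00544 and 0.137. Arrays of unequal number gave -0.234 to 0.0772 for SRG3 cKO with WT, below every value of equal number. Their ranges were -0.288 to 0.131 for RORgt KO with WT and -0.246 to 0.148 for SRG3 cKO with RORgt KO. The labels state no pairing, and the main fit took no arrays as pairs, in SRG3 cKO against WT as well. Its estimates, intervals and p-values are therefore unpaired, and the replicate number was used only as a block among the alternatives. Alternatives were quantile normalisation, a filter on dim genes, other probe sets per gene, a variance trend, array weights, fits of 6 arrays, the replicate block and leaving out arrays.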

Additional observations from a re-analysis of the deposited data

How the results depend on the processing

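None of the members that passed or had the largest changes turned sign under the 19 alternatives. The H/ACA median in SRG3 cKO against WT (-0.07) turned to 0.03 and 0.01, and that of the 88 genes (0.02) to -0.01, each with 1 array left out. Of 261 changes of pathway list genes, 59 turned sign in at least 1 alternative, and none of these passed or was above 0.10 in size. In SRG3 cKO against WT 0 of the 88 genes passed under any of them, the replicate block included. In RORgt KO against WT, where 1 passed, the count was 2 with quantile normalisation, 2 with genes above the 25th percentile alone, 2 with a variance trend and robust fit, 0 with all probe sets in the fit, and 0 in the 6 arrays of these groups. It ranged from 0 to 2 when 1 array was left out. In SRG3 cKO against RORgt KO, where 0 passed, it was 1 with quantile normalisation and 1 with array weights (Snord89, adjusted p = 0.0486 and 0.0454), and 0 to 1 when 1 array was left out (Snord89 without SRG3 cKO array 1, adjusted p = 0.0351). With the replicate block it was 1 (Snord61, adjusted p = 0.0419), and the block left the RORgt KO count against WT at 1. Of 2 alternatives chosen after seeing the data, leaving out the 3 arrays numbered 1 gave 0 in RORgt KO against WT, and the block in the 6 arrays gave 0. The share of all genes that passed is given above for the main fits alone, so the counts under the alternatives stand without their background. The causes of these differences between fits were not tested. The members' median ranged from -0.01 to 0.05 in SRG3 cKO against WT, -0.09 to -0.02 in RORgt KO against WT and 0.04 to 0.09 between the knockouts. The alternative without the Snord113, Snord115 and Snord116 families was not run, since none of them is a member. Close copies (Snora73a and Snora73b, Snord35a and Snord35b, Snord49a and Snord49b, Snord73a and Snord73b, Snord88a and Snord88c) may share probes, so their separate values are uncertain.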

Other observations

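Other small RNAs, among them RNAs of the nucleolus and of Cajal bodies, were measured beside the members. They were picked by symbol, so snoRNAs named otherwise than by the rule, such as U3, are among them. Of 15 such genes, with microRNA genes left out, 0 passed in any comparison (limma), and their medians were 0.02, -0.02 and 0.07. Of the 15, at an unadjusted p under 0.05, 1 was higher in SRG3 cKO cells (6.04% of all genes), and 1 was higher and 3 lower in RORgt KO cells (6.08% and 6.64% of all genes), each against WT. Between the knockouts 3 were higher in SRG3 cKO cells (5.57% of all genes). The 2 genes that follow were chosen after their values were seen. Rnu3a, a gene of the U3 RNA that acts in cleavage of the ribosomal RNA precursor, was at 8.96, 9.33 and 9.32 in RORgt KO arrays and 9.38, 9.68 and 9.46 in SRG3 cKO arrays, against 9.28, 10.73 and 10.07 in WT arrays. WT array 1 lay within the knockouts' range, and the log2 change was -0.82 in RORgt KO cells (95% interval -1.48 to -0.17, adjusted p = 0.281) and -0.52 in SRG3 cKO cells (adjusted p = 0.554). Scarna17, a Cajal body RNA, was at 10.37, 10.26 and 10.30 in SRG3 cKO arrays, against 10.01, 9.86 and 9.88 in WT arrays, without overlap (0.39, interval 0.20 to 0.59, adjusted p = 0.105).

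A further 44 probe sets carried a snoRNA or host symbol together with another gene's symbol, and 30 symbols, Gas5 among them, were found on such probe sets alone. None of the 44 passed in any comparison (limma, all probe sets in the fit). At an unadjusted p under 0.05, 18 passed in SRG3 cKO against WT, 2 in RORgt KO against WT and 19 in SRG3 cKO against RORgt KO, with median log2 changes of -0.08, 0.02 and 0.04. Of all 41345 probe sets, 8.55%, 9.99% and 8.94% passed at that p. Which of the genes on a probe set gave these values was not tested.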
